A study of Mus musculus with 3 samples.

Results

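Intraflagellar transport (IFT), BBSome and ciliary transition zone genes were examined in single cells of mouse embryos at the onset of left-right patterning. The members were all features whose symbol begins with Ift, Bbs or Tctn and a digit, together with 16 subunits whose symbols follow no such pattern (Traf3ip1, Ttc21b, Wdr19, Wdr35, Cluap1, Ttc26, Cep290, Cc2d2a, Mks1, Tmem67, Tmem216, Tmem231, B9d1, B9d2, Rpgrip1l and Ahi1). This rule gave 41 genes of the 31054 features measured: 6 of IFT-A, 8 of IFT-B1, 6 of IFT-B2, 6 of the BBSome, 2 chaperonin-like BBS genes, 12 of the transition zone and Ift88os, an antisense transcript of the Ift88 locus. The rule used no expression value. Embryos (n = 3) were dissociated and captured separately on the 10x Genomics platform with the 3′ version 3 chemistry, which gave 1 library per embryo. All carried the label WT, a C57BL/6 x 129 SvEv background and a stage of embryonic day 8 with 0 to 2 somites, none was treated, and the study's genotyping called each of them male. The extraembryonic tissue had been cut away before dissociation. The study compared the left-right organizer (LRO), known as the node in mouse, with the other cell types of the same embryos.

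Cilia are built and maintained by trains of IFT proteins that run along the axoneme. IFT-B trains carry cargo to the tip with kinesin-2 motors, IFT-A trains return it to the base with dynein-2, the BBSome loads membrane proteins for export, and the transition zone is the gate at the base of the cilium. Most cells of the embryo at this stage carry a single immotile primary cilium that serves Hedgehog signalling, the pit cells of the LRO carry motile cilia that drive the leftward flow, and the extraembryonic endoderm is known for its lack of primary cilia. The same IFT and transition zone proteins serve both kinds of cilium, whereas dynein arms, radial spokes and related proteins are proper to the motile kind.

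Promoters of the members were searched for the X-box, the binding motif of RFX transcription factors that is known from many ciliary genes. The motif was written as GTNNCC and GGNNAC with 2 free bases between them, which equals its own reverse complement, and was looked for in the 300 bases from 250 before to 50 after the start site (RefSeq, GRCm38.p6). Of the 41 members, 36 had an entry in the promoter table, with 39 promoters; Ift80, Tmem67, Ift81, Ift122 and Ift88os had none. The motif was found in 12 of the 39 promoters (30.8%) and in 618 of all 32851 promoters of the table (1.88%). A shorter form, GTTNCC followed after 2 free bases by GG on either strand, which lies within the first motif in most of these promoters, was found in 13 of the 39 promoters (33.3%) and in 6.27% of all promoters. The sites are shown because they are the sequence feature that the rule did not use and that occurred in members of IFT-A, IFT-B1, IFT-B2, the BBSome and the transition zone; capitals mark the fixed letters of the motif, and each site is written 5′ to 3′ on the strand of its gene:
Wdr19 (chr5:65199662-65199675, plus strand, first base 34 before the start site): GTctCCtgGGtgAC
Ift22, upstream site (chr5:136908087-136908100, plus strand, first base 63 before the start site): GTttCCtgGGctAC
Ift22, downstream site (chr5:136908117-136908130, plus strand, first base 33 before the start site): GTcgCCgtGGaaAC
Ttc26 (chr6:38381491-38381504, plus strand, first base 33 before the start site): GTtgCCgtGGaaAC
Ift57 (chr16:49699207-49699220, plus strand, first base 87 before the start site): GTtgCCgtGGtgAC
Bbs1 (chr19:4906613-4906626, minus strand, first base 2 after the start site): GTtgCCaaGGcgAC
Bbs4 (chr9:59353472-59353485, minus strand, first base 24 after the start site): GTcgCCcgGGaaAC
Bbs7 (chr3:36613497-36613510, minus strand, first base 121 before the start site): GTtgCCttGGaaAC
Tctn1 (chr5:122264411-122264424, minus strand, first base 37 after the start site): GTtgCCcgGGcaAC
Tmem216 (chr19:10555731-10555744, minus strand, first base 20 after the start site): GTttCCatGGggAC
Tmem231 (chr8:111933789-111933802, minus strand, first base 12 after the start site): GTtgCCgtGGagAC
Ahi1 (chr10:20952568-20952581, plus strand, first base 22 after the start site): GTtaCCtaGGcaAC
Mks1 (chr11:87853191-87853204, plus strand, first base 24 before the start site): GTtgCCagGGgaAC
The sites of Wdr19, Ift22, Ttc26, Ift57, Bbs7 and Mks1 lay upstream of the start site, whereas those of Tctn1, Tmem216, Tmem231, Ahi1, Bbs1 and Bbs4 began within the first 50 transcribed bases. These distances are from the RefSeq start. Distances after the start site count the start base itself as the first, whereas distances before it begin with the base ahead of it. In the GENCODE annotation Ttc26 begins at chr6:38381469, so that its site lies inside the gene there. The 250 bases upstream are given for Ift22 of IFT-B1 and Wdr19 of IFT-A, whose starts are the same in both annotations, to show the motif in its context, with the 14 bases of each site in capitals and the last base next to the start site:
Ift22 (chr5:136907900-136908149, plus strand): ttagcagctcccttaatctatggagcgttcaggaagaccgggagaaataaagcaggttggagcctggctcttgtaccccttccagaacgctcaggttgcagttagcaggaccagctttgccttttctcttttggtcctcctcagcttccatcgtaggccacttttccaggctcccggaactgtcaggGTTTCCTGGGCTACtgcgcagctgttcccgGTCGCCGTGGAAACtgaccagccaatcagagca
Wdr19 (chr5:65199446-65199695, plus strand): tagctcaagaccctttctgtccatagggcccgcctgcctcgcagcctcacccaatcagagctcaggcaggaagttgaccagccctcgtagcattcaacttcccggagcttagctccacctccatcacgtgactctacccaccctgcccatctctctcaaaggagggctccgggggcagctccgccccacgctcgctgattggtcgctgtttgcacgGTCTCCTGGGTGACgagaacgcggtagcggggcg
Ift22 held 2 copies of the motif, both upstream. In the comparison of LRO cells with other lineages described next, the 12 members with the motif had a median log2 fold change of 1.58 (range 0.85 to 2.24) and the 24 members with a promoter but no such motif had one of 1.21 (range 0.04 to 2.00). The 2 ranges overlapped, and a match in these letters is a description of sequence and not a measured binding site.

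Cell types were set by marker UMIs (unique molecular identifiers, which count each captured transcript once). LRO cells had at least 4 of Foxj1, Noto, Pifo, Fam183b, Cfap126 and 1110017D15Rik, and cells of 11 other lineages had at least 4 of 6 markers of their own, no second lineage and at most 1 LRO marker. At least Foxj1, a regulator of motile cilia, and Cfap126, a cilia and flagella associated gene, are ciliary among these LRO markers. LRO cells were thus chosen by expression of ciliary genes, and the part of this choice in the differences below was not tested. The libraries held 6579, 8621 and 8333 barcodes with medians of 26011, 14050 and 15674 UMIs, shared between 18 and 22 barcode sequences in pairs, and kept 5795, 7956 and 7844 cells after filtering. LRO cells numbered 77, 78 and 108 in embryos 1, 2 and 3 (2684862, 1766096 and 3392260 UMIs), axial mesoderm cells 15, 39 and 15, and extraembryonic endoderm cells 249, 1149 and 913. Of the other lineages, 8 were taken as bearing primary cilia: neural plate, caudal epiblast, surface ectoderm, definitive endoderm, presomitic, paraxial and cardiac mesoderm, and endothelium. The LRO genes Dand5 and Nodal, which were not used to choose the cells, were at 262, 148 and 92.0 and at 125, 43.0 and 54.5 CPM (UMIs of a gene per 1000000 UMIs of the summed cells) in LRO cells, against at most 3.39 and 1.58 in any of these 8 lineages. Fewer transcripts per cell and fewer cells that carry a transcript cannot be told apart in such sums. The marker count of axial mesoderm was also met by 60 of 77, 61 of 78 and 72 of 108 LRO cells. Of the LRO cells, 55 of 77, 44 of 78 and 80 of 108 also met the marker count of a lineage other than axial mesoderm. The remaining 22, 34 and 28 cells held only 319638, 338337 and 356630 UMIs, so that most UMIs of each LRO sum came from cells that met another lineage too. Counts and medians of the members against the 8 lineages and axial mesoderm are therefore given without those cells as well. LRO levels in CPM are for all LRO cells.

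The libraries of embryos 1 and 3 went against their label. The reference contained the EGFP sequence, a transgene that wild-type embryos lack, and 31, 0 and 32 EGFP UMIs were counted in embryos 1, 2 and 3. LRO cells held 26 of the 31 and 29 of the 32 UMIs. An EGFP UMI was found in 18 of 77 LRO cells of embryo 1 (23.4%, exact 95% interval 14.5 to 34.4%, counting error only) and 19 of 108 in embryo 3 (17.6%, 10.9 to 26.1%), against 2 of 5718 and 2 of 7736 other kept cells. None was seen in 78 LRO cells of embryo 2, for which the exact 95% interval reaches up to 4.62% (3 counts in these cells would be 3.85%). Results are therefore given for the library labelled WT replicate 2 alone as well, without a test.

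Nearly every member was higher in LRO cells than in the lineages with primary cilia. Of the 41 members, 40 passed the filter on low counts, and 37 of these were higher in the LRO than in the mean of the 8 lineages while none was lower (edgeR quasi-likelihood test on UMIs summed per embryo and lineage, adjusted p under 0.05). Over all 13671 genes tested, 32.3% passed in either direction, 20.1% higher and 12.1% lower (2751 and 1661 genes). This split was 3110 to 961 without TMM scaling and 3012 to 1120 with DESeq2, and 37 members were higher under both. The median log2 fold change of the members was 1.27, against 0.028 over all genes. Summed over all members, LRO cells held 2053, 1844 and 1511 CPM in embryos 1, 2 and 3 (1802 ± 273, SD, n = 3), whereas the highest of the 8 lineages, the neural plate, held 795 ± 25.1. The level of the LRO exceeded the highest of the 8 lineages in each embryo for 32 of 41 members, which was so for 9.0% of all genes tested (1230 of 13671). In embryo 2 alone, 39 of 40 members were higher on the log2(CPM + 1) scale, with a median difference of 1.35, against 0.091 over all genes tested.

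**Figure D1:**
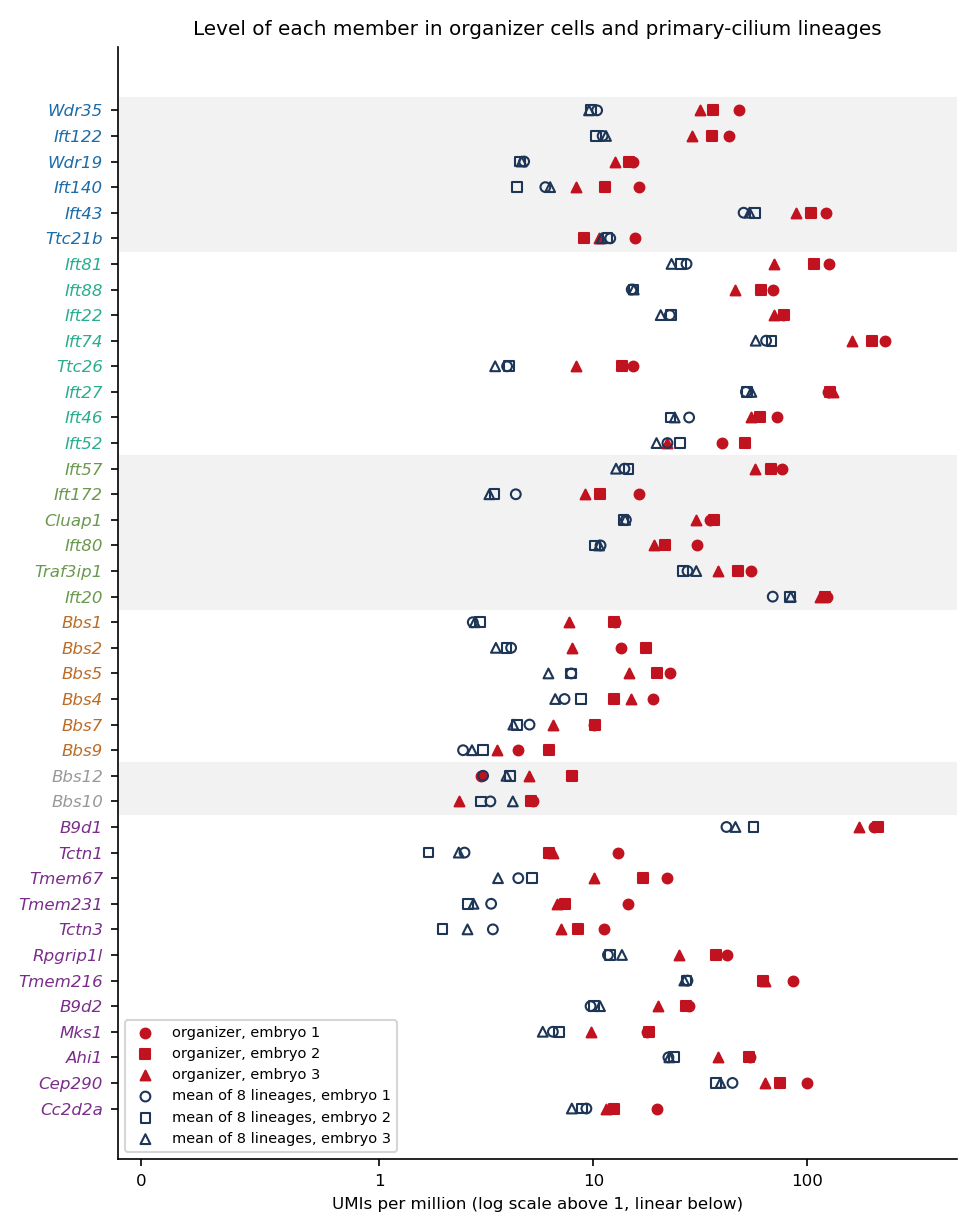
Level of the 40 members that passed the filter in CPM (x axis, logarithmic above 1), coloured and shaded by complex; filled red symbols are LRO cells and open symbols the mean of the 8 primary-cilium lineages, with a circle, square and triangle for embryos 1, 2 and 3. For 37 members the red symbol lay to the right of the open symbol of the same embryo in all 3 embryos, the exceptions being Ttc21b, Bbs10 and Bbs12.

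Of the 6 IFT-A genes, which form the retrograde train, 5 were higher in the LRO (median log2 fold change over all 6 of 1.31). Wdr35 (chr12:8973892-9028847, GRCm38), which encodes IFT121, was measured at 47.7, 36.2 and 31.5 CPM in LRO cells and at 10.4, 9.78 and 9.55 over the 8 lineages (log2 fold change 1.91 ± 0.12, SE, edgeR adjusted p = 1.13e-15). Ift122, a core subunit, was measured at 42.8, 35.7 and 28.9 in LRO cells and at 11.0, 10.2 and 11.5 over the lineages (1.66 ± 0.12, adjusted p = 7.64e-14). No embryo of either gene overlapped with the other class. Wdr19 (IFT144), Ift140 and Ift43 were higher by 1.57, 1.04 and 0.90 on the log2 scale. Ttc21b, which encodes the peripheral subunit IFT139, was the member nearest to 0. Its levels were 15.6, 9.06 and 10.6 CPM in LRO cells and 11.99, 11.6 and 10.9 over the lineages, so that the embryos overlapped (0.04 ± 0.18, adjusted p = 0.897). The sign of this difference turned under other settings, for example to -0.31 against neural plate alone.

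All 8 IFT-B1 members, which belong to the core of the anterograde train, were higher in the LRO (median 1.59). Ift81, which binds tubulin together with Ift74, was measured at 126, 107 and 69.6 CPM against 27.2, 25.6 and 23.2 over the lineages (1.92 ± 0.11, edgeR adjusted p = 7.87e-17). Ift88, the gene mutated in the orpk mouse, stood at 69.3, 60.6 and 45.7 in LRO cells and at 15.1, 15.4 and 15.4 over the lineages (1.87 ± 0.12, adjusted p = 2.10e-15). The LRO values of both genes varied among embryos, with embryo 3 the lowest, yet every one lay above the lineage mean of every embryo. For Ift22, a small GTPase-like subunit whose promoter with 2 motif copies is printed above, LRO cells held 77.1, 78.1 and 70.2 and the lineages 22.8, 23.1 and 20.6 (1.70 ± 0.083, adjusted p = 2.27e-18). Ift74, Ttc26 (IFT56), Ift27 and Ift46 were higher by 1.60, 1.59, 1.24 and 1.23. Ift52 had the lowest fold change of these 8 members, 0.62 ± 0.15, with 39.9, 51.0 and 22.1 in LRO cells and 22.2, 25.4 and 19.7 over the lineages.

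The 6 IFT-B2 members, of the peripheral part of the anterograde train, were all higher as well (median 1.15). Ift57 (chr16:49699233-49765126, GRCm38) had the largest fold change of all members. It was measured at 76.4, 67.9 and 57.2 CPM in LRO cells and at 13.97, 14.6 and 12.8 over the lineages (2.24 ± 0.11, edgeR adjusted p = 1.02e-18). Ift172, a large subunit, Cluap1 (IFT38) and Ift80 were higher by 1.66, 1.19 and 1.11. Traf3ip1 (IFT54) and Ift20, which also works at the Golgi, had smaller differences of 0.70 and 0.53.

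All 6 BBSome members were higher in the LRO (median 1.15), at low levels. Bbs1, the subunit that contacts the GTPase ARL6, was measured at 12.7, 12.5 and 7.66 CPM in LRO cells and at 2.73, 2.96 and 2.79 over the lineages (1.91 ± 0.25, edgeR adjusted p = 1.70e-07). Bbs2 stood at 13.4, 17.6 and 7.96 against 4.13, 3.93 and 3.51 (1.66 ± 0.21, adjusted p = 4.96e-08). Embryo 3 was the lowest of the LRO values for both and did not overlap with the lineages. Bbs9 was just inside the threshold with 0.71 ± 0.28 (edgeR adjusted p = 0.0498), rested on 35 LRO UMIs in all and did not pass when any 1 embryo was left out. Neither chaperonin-like gene, whose products help to assemble the BBSome, passed the test: Bbs12 differed by 0.42 ± 0.28 and Bbs10 by 0.15 ± 0.32, with 39 and 31 LRO UMIs.

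All 12 transition zone members were higher in the LRO (median 1.36). B9d1 (chr11:61505144-61512931, GRCm38), a B9 domain protein of the Meckel syndrome complex, was measured at 204, 214 and 175 CPM in LRO cells and at 41.9, 56.0 and 46.1 over the lineages (2.00 ± 0.11, edgeR adjusted p = 1.57e-16). Tctn1, a tectonic, stood at 13.04, 6.23 and 6.49 against 2.501, 1.70 and 2.35 (1.96 ± 0.26, adjusted p = 1.79e-07). The embryos did not overlap for either gene, and embryo 1 was the highest for Tctn1 in LRO cells. Tmem67, or meckelin, was at 21.98, 16.99 and 10.02 in LRO cells and at 4.46, 5.15 and 3.59 over the lineages (1.82 ± 0.24, adjusted p = 1.77e-07). Tmem231 had 14.5, 7.36 and 6.78 against 3.33, 2.60 and 2.76 (1.66 ± 0.25, adjusted p = 1.56e-06). These 4 genes were thus separated in each embryo. Rpgrip1l, Tmem216, B9d2 and Mks1 were higher by 1.40, 1.32, 1.23 and 1.14, and the smallest differences were those of Cep290 (0.88), the linker between axoneme and membrane, and Cc2d2a (0.70). Ift88os had 1 UMI in all lineages together, in definitive endoderm of embryo 2, and none in 7843218 UMIs of LRO cells.

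Related genes outside the list were counted beside the members. All 8 IFT motor genes were higher in the LRO, with Wdr60 at 2.34 ± 0.097 and Wdr34 at 2.27 ± 0.17 on the log2 scale, both parts of dynein-2, as were 5 of 8 further IFT and BBSome subunits tested, 4 of 6 nephronophthisis module genes, 4 of 8 genes of ciliary membrane traffic (with Rab8a lower) and 3 of 6 genes of the basal body appendages. Of the further subunits, Hspb11, Bbip1 and Mkks were not called (0.24, 0.041 and 0.095 on the log2 scale, edgeR adjusted p = 0.105, 0.751 and 0.766). All 12 motile axoneme genes were higher with a median of 6.57, and all 8 further LRO genes with one of 6.09. The 6 mitotic genes were lower, with a median of -0.48. Fold changes of the members were larger once LRO cells that also met another lineage were left out (median 2.34, 37 called) or when markers were counted after thinning each cell to 5000 UMIs (2.12, 36 called). Over all genes, 5000 of 14141 and 3972 of 11578 were called in these 2 settings. The first kept 22, 34 and 28 LRO cells with medians of 12035.5, 7824 and 9208 UMIs, and the second 44, 34 and 41 LRO cells. Both thus asked for the same count of LRO markers from fewer UMIs per cell. The part of this choice in the larger fold changes was not tested. Among cells with mitotic genes alone, in every lineage, 33 members were higher, with a median of 1.01, where 1998 of all 13505 genes were higher.

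Axial mesoderm, the notochord and prechordal plate lineage that shares expression of Foxa2, T and Shh with the LRO, was the closest comparison. These genes were also among the markers that set the axial cells. Shh and Foxa2 were lower in LRO cells than in axial mesoderm (log2 fold change -1.80 ± 0.22 and -0.61 ± 0.19, edgeR adjusted p = 4.85e-07 and 0.044). No difference was called for T (-0.18 ± 0.24). Of 40 members, 19 were higher in the LRO and none was lower, where 7.61% of all genes passed in either direction, 4.53% higher and 3.08% lower. The members had a median log2 fold change of 1.03, against 0.063 over all genes. LRO and axial mesoderm embryos did not overlap for 24 members, all higher in the LRO, and 19.0% of all genes were higher without overlap. The axial sums held 276947, 522464 and 215028 UMIs, so that many members rested on few counts there. Axial cells had medians of 17804, 10755 and 9098 UMIs, against 29798, 18295 and 28131.5 in LRO cells. A marker counted from 1 UMI, so the class of a cell depended in part on its depth. With markers counted after thinning, 32 of 40 members passed, where 1543 of all 11578 genes did.

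By complex, 4 of 6 IFT-A, 6 of 8 IFT-B1, 2 of 6 IFT-B2, 1 of 6 BBSome and 6 of 12 transition zone genes passed the test. Tmem216, a membrane protein of the Meckel complex, was measured at 85.3, 62.3 and 63.1 CPM in LRO cells and at 25.3, 23.0 and 18.6 in axial mesoderm (1.61 ± 0.20, edgeR adjusted p = 1.02e-06). Ift81 had 32.5, 36.4 and 27.9 in axial mesoderm (1.55 ± 0.26, adjusted p = 6.43e-05) and Ift22 25.3, 34.5 and 18.6 (1.38 ± 0.20, adjusted p = 1.09e-05). All 3 genes were separated in every embryo. Cluap1 was at 35.01, 36.8 and 30.1 in LRO cells and at 3.61, 11.5 and 18.6 in axial mesoderm (1.61 ± 0.35, adjusted p = 0.00201). Rpgrip1l, a scaffold of the transition zone, was at 42.1, 37.4 and 25.1 against 7.22, 17.2 and 4.65 (1.53 ± 0.39, adjusted p = 0.010).

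Among the called genes, Ift140, B9d2 and Bbs5 had very few axial UMIs. Ift140 was at 16.4, 11.3 and 8.25 CPM in LRO cells and at 0, 1.91 and 4.65 in axial mesoderm (2.55 ± 0.78, edgeR adjusted p = 0.0375), where 2 UMIs gave a ratio of 5.95 with an exact 95% counting interval of 1.60 to 49.9. B9d2 was at 27.9, 27.2 and 20.05 against 0, 9.57 and 0 (2.31 ± 0.47, edgeR adjusted p = 0.0011), and Bbs5, a BBSome subunit, at 22.7, 19.8 and 14.7 against 10.8, 1.91 and 4.65 (1.90 ± 0.53, adjusted p = 0.019), both on 5 axial UMIs. The embryos did not overlap for these 3 genes, but Ift140 and Bbs5 did not pass in DESeq2, where 15 members and 967 of all 13671 genes were called. Bbs10 was nearest to 0, at 5.21, 5.10 and 2.36 against 0, 3.83 and 9.30 on 4 axial UMIs (0.0023 ± 0.81). Ift57 differed from axial mesoderm by 0.58 ± 0.22 (edgeR adjusted p = 0.122), with 54.2, 45.9 and 27.9 CPM there. All 3 LRO values were higher than these, and the axial values were in turn higher than those of the 8 lineages, which reached 20.5. Without replicate 2, which held most of the axial cells, 9 members passed, and without replicate 1, 11. Over all genes, 408 of 14181 and 575 of 13216 passed in these settings. When LRO cells of other lineages were left out, 32 members passed with a median of 2.07, where 2055 of all 14141 genes passed. The LRO cells left had medians of 12035.5, 7824 and 9208 UMIs. Of the related lists, 6 of 8 IFT motors, 1 of 8 further subunits, 1 of 8 traffic genes, 2 of 6 nephronophthisis genes, 2 of 6 appendage genes and 12 of 12 motile axoneme genes were higher in the LRO than in axial mesoderm. The 8 further LRO genes were split, with 3 higher, 2 lower and a median of -0.39. Of these 8, T, Foxa2, Shh and Chrd were among the markers that set the axial cells. The split and its median were therefore not independent of that choice. Most LRO cells also met the marker count of axial mesoderm (60 of 77, 61 of 78 and 72 of 108). Axial cells had been limited to at most 1 LRO marker, with Foxj1 and Cfap126 among these markers. The comparison of ciliary genes was therefore not independent of the choice of cells. In embryo 2 alone, 36 of 40 members were higher in the LRO, with a median difference of 1.07, against 0.074 over all genes tested.

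**Figure D2:**
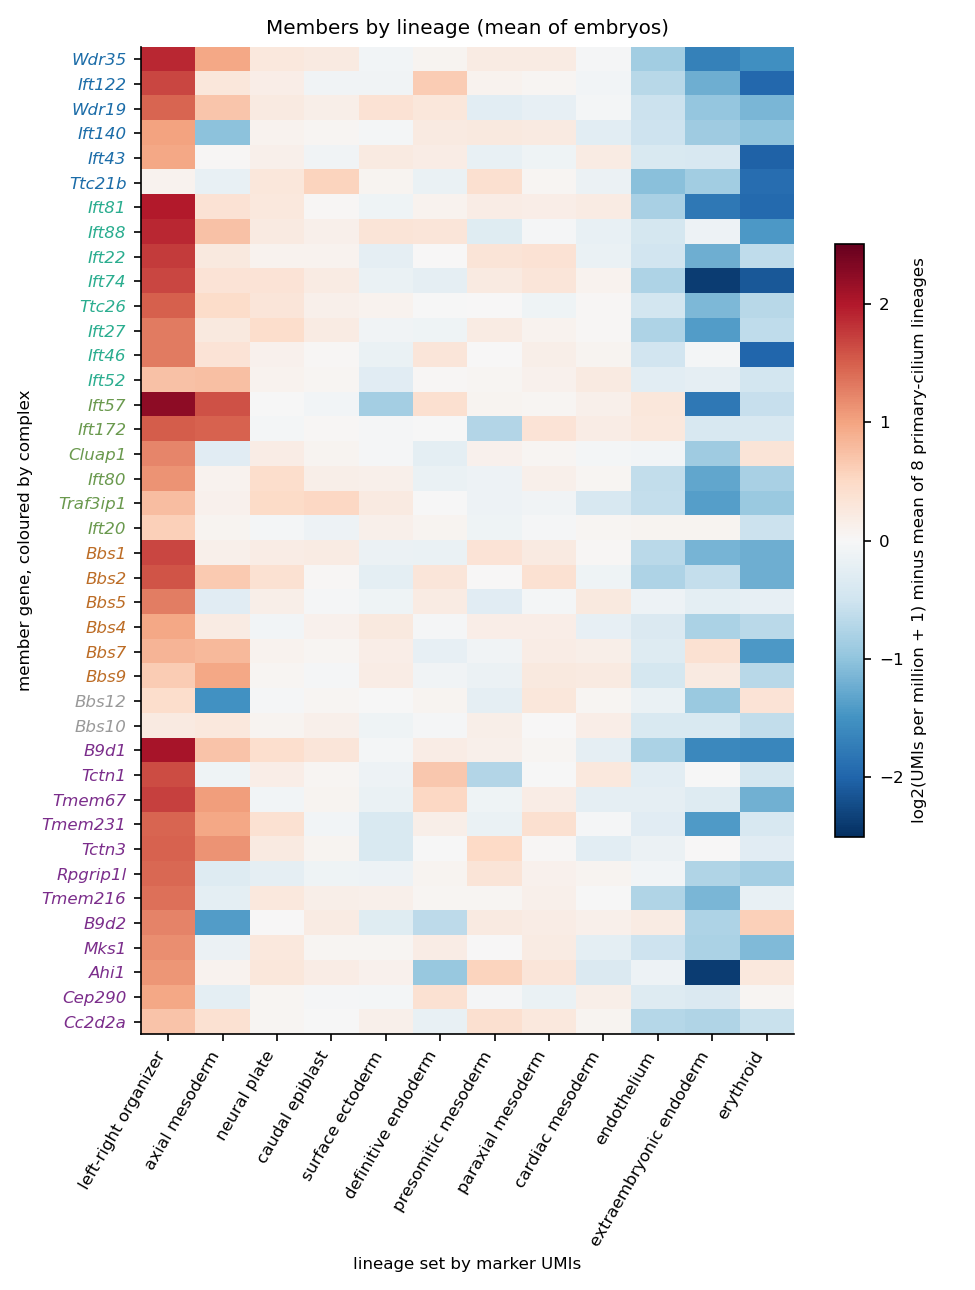
Level of each member in each lineage as the log2(CPM + 1) of the mean over embryos minus the average of the 8 primary-cilium lineages (colour), with members in rows and lineages in columns. The LRO column is mostly red, axial mesoderm is mixed, and the endothelium, extraembryonic endoderm and erythroid columns are mostly blue; erythroid cells come from 2 embryos.

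Among the 8 lineages with primary cilia the summed level of the members spanned a smaller range. Summed over all members, the neural plate held 781, 824 and 780 CPM in embryos 1, 2 and 3, the highest of the 8 and above each embryo of the next. Caudal epiblast (740 ± 9.56), paraxial mesoderm (734 ± 20.4), presomitic mesoderm (724 ± 31.9), definitive endoderm (716 ± 30.1), cardiac mesoderm (694 ± 11.2) and surface ectoderm (681 ± 15.8) followed, and among these 6 neighbours in the order overlapped in their embryos. Endothelium held 523, 505 and 495, below every value of the other 7 lineages. A single test of any difference among the 8 lineages called 22 of 40 members, and 68.6% of all genes. Members of IFT-A (5 of 6) and IFT-B1 (6 of 8) passed, as did 3 of 6 of IFT-B2, 7 of 12 of the transition zone and 1 of 6 of the BBSome.

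Ttc21b, for which no difference between the LRO and the lineages was called, had the largest ratio between lineages among the members called. It was at 16.8, 15.3 and 17.5 CPM in caudal epiblast and at 6.13, 4.46 and 3.89 in endothelium, a ratio of the means of 3.42 (edgeR adjusted p = 3.06e-06 for any difference). Ahi1, or jouberin, was at 35.1, 30.5 and 32.6 in presomitic mesoderm and at 11.7, 11.7 and 9.09 in definitive endoderm (ratio 3.02, adjusted p = 4.11e-08). Ift57 was highest in definitive endoderm with 18.7, 20.5 and 14.5 and lowest in surface ectoderm with 7.62, 6.64 and 6.80 (ratio 2.55, adjusted p = 7.70e-05). The extremes did not overlap for these 3 genes, which was a condition of naming them and held for all 22 members called. The lineages at the extremes differed from gene to gene.

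Ift122 was highest in definitive endoderm too, with 19.1, 13.9 and 18.2 against 5.25, 7.06 and 6.17 in endothelium (ratio 2.77, edgeR adjusted p = 1.52e-05). Endothelium was also the lowest lineage for Bbs2, Wdr35, Cc2d2a and B9d1, with ratios to the highest lineage of 2.94, 2.45, 2.44 and 2.37. Bbs2 stood at 5.47, 5.44 and 4.60 in neural plate and at 2.33, 1.11 and 1.83 in endothelium (edgeR adjusted p = 0.00195), and Wdr35 at 11.6, 12.5 and 11.2 against 4.67, 4.46 and 5.26 in the same lineages (adjusted p = 8.07e-05). Cc2d2a, a coiled-coil protein of the transition zone, was at 11.9, 12.9 and 9.85 in presomitic mesoderm and at 5.84, 3.34 and 5.03 in endothelium (adjusted p = 0.00223). B9d1 stood at 52.9, 77.1 and 58.0 in neural plate and at 22.8, 27.9 and 28.6 in endothelium (adjusted p = 3.76e-05). None of these extremes overlapped, which the choice of named genes required. Without endothelium 14 members were called, where 7619 of all 13671 genes were. Bbs2, Wdr35 and Cc2d2a were among the 8 members that no longer passed. Ift20, Bbs5 and Rpgrip1l were among the 18 members not called (adjusted p = 0.572, 0.292 and 0.334).

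**Figure D3:**
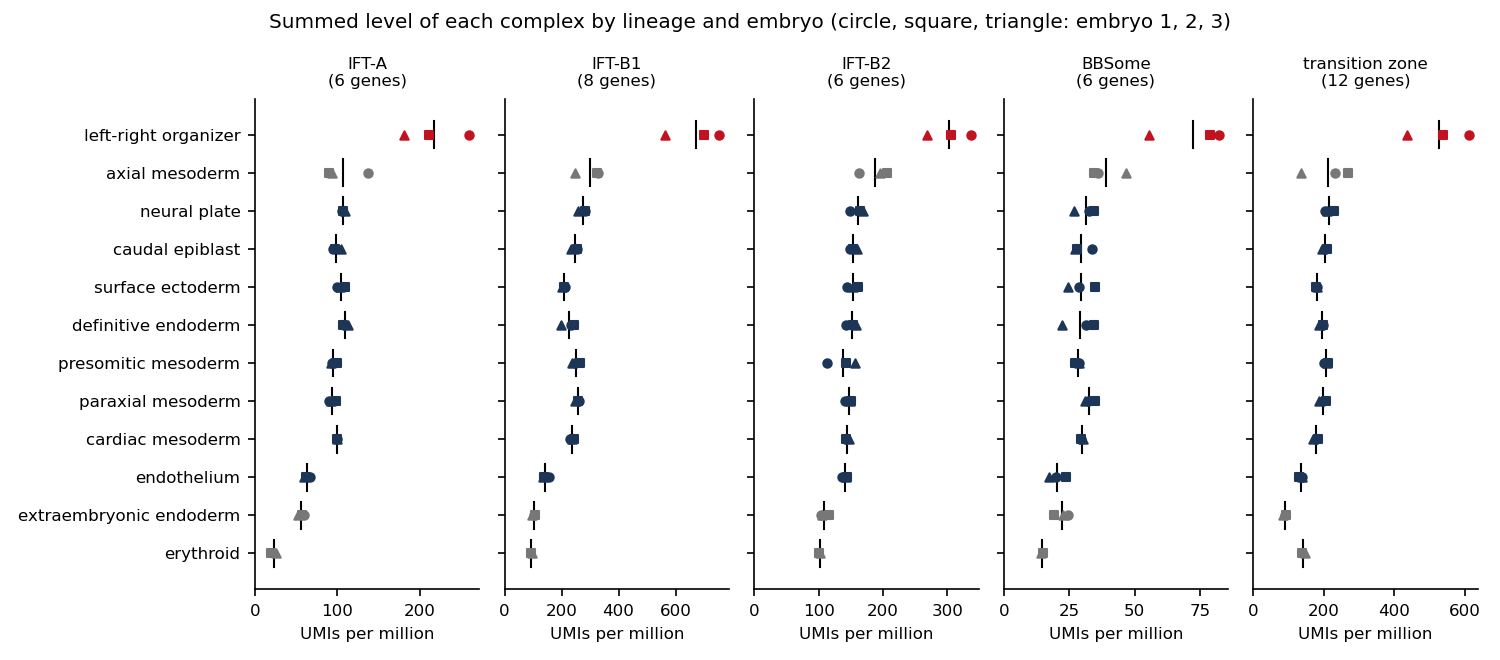
Summed CPM of each complex (x axis, from 0) by lineage; circles, squares and triangles are embryos 1, 2 and 3, black ticks are means, red is the LRO, dark blue the 8 primary-cilium lineages and grey the others. The LRO points lay above all others in each complex, with means of 217 for IFT-A, 672 for IFT-B1, 303 for IFT-B2, 72.1 for the BBSome and 528 for the transition zone.

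Extraembryonic endoderm cells remained in all libraries although that tissue had been removed, and their identity rests on 6 markers of yolk sac and visceral endoderm (Cubn, Amn, Apob, Apom, Afp and Soat2); Ttr, a marker not used for the choice, was at 6146, 6640 and 5958 CPM in them and at most 178 in the lineages with primary cilia. Members were mostly lower in these cells. Compared with the mean of the 8 lineages, 26 of 40 members were lower and 3 were higher, where 73.1% of all genes passed, 34.8% lower and 38.3% higher. The median log2 fold change was -0.73, against -0.0043 over all genes. Summed over all members, 385, 397 and 365 CPM were left (382 ± 16.1), and erythroid cells of embryos 2 and 3 held 374 and 390.

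Tmem231 and Ahi1, both of the transition zone, had the lowest fold changes. Tmem231 was at 0.405, 0.596 and 0.313 CPM in extraembryonic endoderm and at 3.33, 2.60 and 2.76 over the 8 lineages (-2.36 ± 0.32, edgeR adjusted p = 5.20e-08). Ahi1 was at 2.56, 3.92 and 3.82 against 22.4, 23.7 and 22.7 (-2.36 ± 0.14, adjusted p = 6.84e-17). The tubulin-binding pair of IFT-B1 was low as well. Ift74 stood at 9.72, 12.4 and 10.9 against 64.1, 67.9 and 57.3 (-2.22 ± 0.11, adjusted p = 3.31e-19), and Ift81 at 7.02, 7.25 and 5.13 against 27.2, 25.6 and 23.2 (-1.71 ± 0.14, adjusted p = 2.86e-13). No embryo overlapped for any of these 4 genes, a separation downward that 50.5% of all genes showed and 30 of 40 members.

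Ift57, the member with the highest fold change in the LRO, was at 3.64, 2.73 and 3.13 CPM in extraembryonic endoderm (-1.87 ± 0.14, edgeR adjusted p = 1.09e-13). Wdr35 was at 2.70, 2.18 and 2.07 (-1.86 ± 0.15, adjusted p = 3.04e-13), Bbs1 at 0.540, 0.993 and 0.501 (-1.63 ± 0.30, adjusted p = 1.30e-05) and B9d1 at 13.2, 17.4 and 13.3 (-1.41 ± 0.14, adjusted p = 1.22e-10). All of these lay under the mean of the 8 lineages in each embryo. By complex, 5 of 6 IFT-A, 5 of 8 IFT-B1, 4 of 6 IFT-B2, 3 of 6 BBSome and 8 of 12 transition zone genes were lower.

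Subunits of 1 complex differed in their calls. Ift88, Ift46 and Ift52 of the IFT-B1 core did not pass the test, and the sign of their differences depended on the scaling. Ift88 was at 12.8, 14.7 and 13.2 CPM against 15.1, 15.4 and 15.4, Ift46 at 24.3, 21.99 and 24.97 against 28.02, 22.9 and 23.996, and Ift52, the member nearest to 0, at 18.5, 22.6 and 15.9 against 22.2, 25.4 and 19.7. The TMM-scaled fold changes were 0.10 ± 0.12, 0.16 ± 0.11 and 0.02 ± 0.13, whereas they were -0.13, -0.071 and -0.22 without TMM. Bbs7 (0.63 ± 0.16), Bbs9 (0.54 ± 0.20) and Ift20 (0.31 ± 0.087) were higher, but without TMM scaling, which put the median of all genes at -0.24 and turned the split of all calls from 5230 higher and 4763 lower to 4120 and 6080, Bbs7 was the 1 member called higher and 29 were lower. Bbs7 was not called higher without replicate 3, Bbs9 not without replicate 1 or 3, and Ift20 not without replicate 2. B9d2 was lower than the 8 lineages (-0.63 ± 0.14) and differed by 0.13 from definitive endoderm alone. Of the related genes, 6 of 8 IFT motors, 5 of 8 further subunits, 6 of 8 traffic genes, 4 of 6 nephronophthisis genes, 5 of 6 appendage genes and 6 of 12 motile axoneme genes were lower. In embryo 2 alone, 4 of 40 members were higher than the lineages. The median difference on the log2(CPM + 1) scale was -0.89, against -0.20 over all genes tested.

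**Figure D4:**
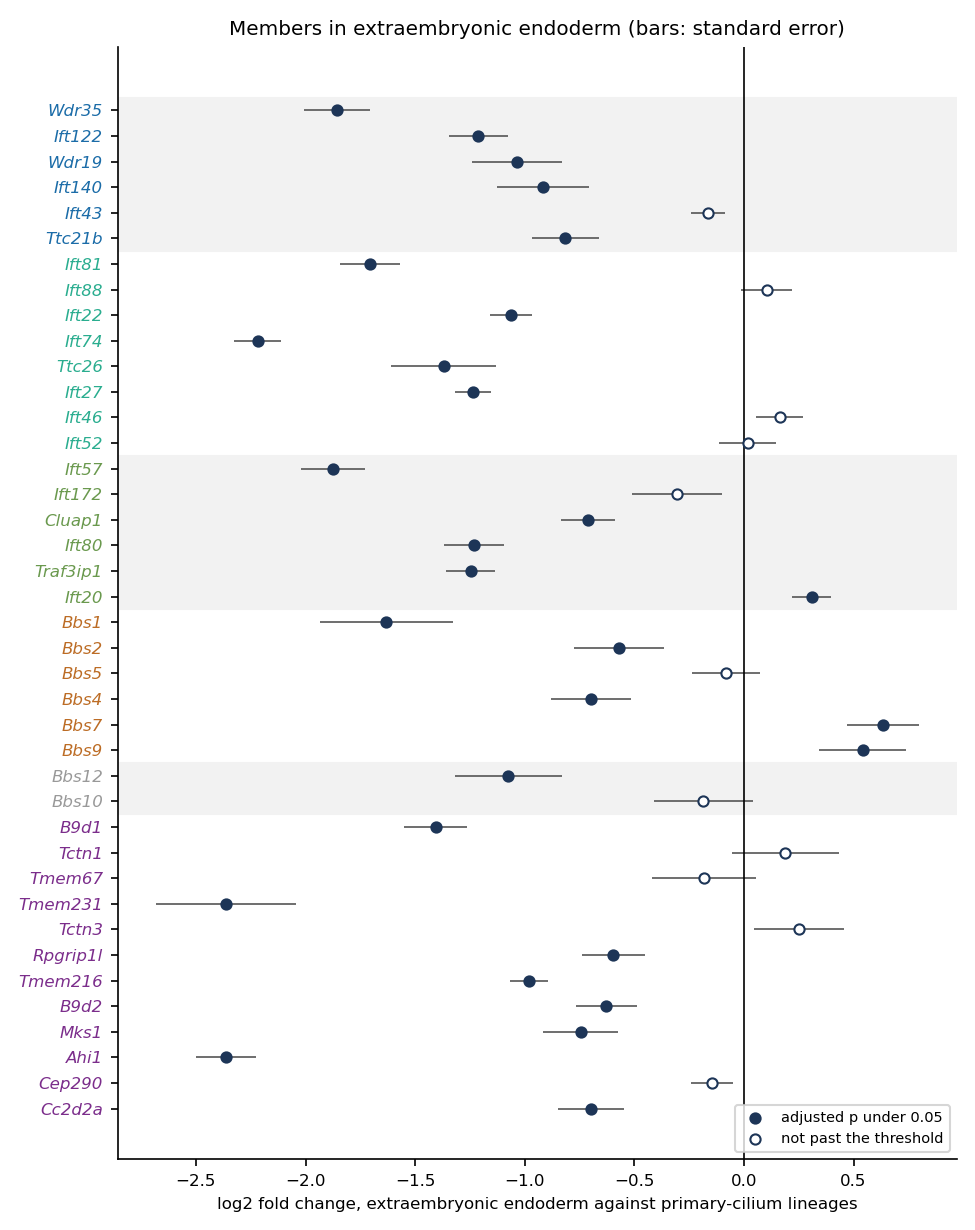
Log2 fold change (x axis) of each member in extraembryonic endoderm against the mean of the 8 primary-cilium lineages, with bars for the standard error; filled points passed an edgeR adjusted p of 0.05 and open points did not. Most points lay left of 0, down to -2.36 for Tmem231 and Ahi1, and the 3 filled points to the right are Ift20, Bbs7 and Bbs9.

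Cilia are known to be resorbed before mitosis, and LRO cells were therefore split by 6 mitotic genes (Mki67, Top2a, Cdk1, Ccnb1, Cenpf and Birc5) after thinning each cell to 5000 UMIs. Cells with none numbered 15, 9 and 12, and cells with 3 or more 42, 46 and 70; the 9 cells of embryo 2 were under the minimum of 10 for a sum, so that 2 sums were compared with 3. LRO cells under 5000 UMIs, 0, 9 and 2 in the 3 embryos, were not classed. Of all kept cells, 5053 of 5795, 6812 of 7956 and 6771 of 7844 also had 3 or more of these genes. The class is therefore not limited to cells in mitosis, and the presence of cilia in it was not measured. Of 37 members tested, 23 were higher in cells without mitotic genes and none was lower, where 12.9% of all 9378 genes passed, 7.55% higher and 5.32% lower (708 higher and 499 lower, or 739 and 299 with DESeq2). The median log2 fold change of the members was 1.40, against -0.077 over all genes. Summed over all members, 4575, 4826 and 3263 CPM were counted in cells without mitotic genes and 1478, 1530 and 1372 in cells with them.

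The order was the opposite when UMIs were counted per cell. Per cell, the members summed to 59.6, 42.6 and 37.8 UMIs in cells without mitotic genes and to 71.7, 44.7 and 50.04 in cells with them. Only 13, 20 and 9 of the 41 members had more UMIs per cell in the former. Cells without mitotic genes had medians of 12084, 7798 and 8608 UMIs, against 45347, 25741 and 30420.5. The 2 classes also differed in other markers: 3 of 15, 1 of 9 and 0 of 12 cells without mitotic genes met the marker count of a lineage other than axial mesoderm, against 40 of 42, 34 of 46 and 62 of 70 cells with them. The part of depth and of these other markers in the result was not tested.

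**Figure D5:**
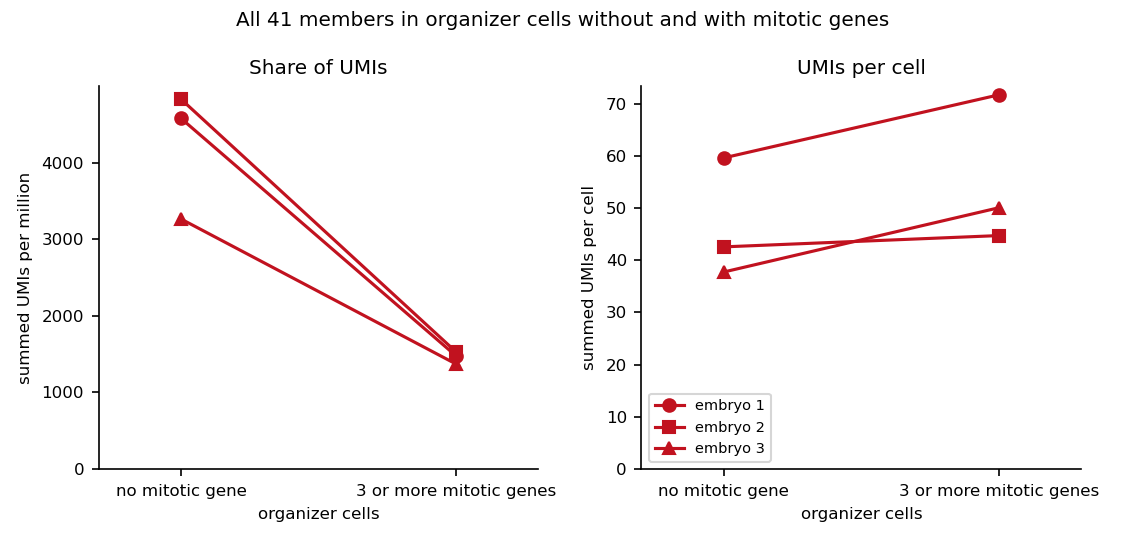
All 41 members summed in LRO cells without and with mitotic genes, as CPM (left) and as UMIs per cell (right), with 1 line per embryo and both axes from 0. The share lay between 3263 and 4826 without and between 1372 and 1530 with mitotic genes, whereas the number per cell was higher in cells with mitotic genes in all 3 embryos.

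Tctn1 had the largest fold change in this split, with 46.1 and 14.4 CPM in cells without mitotic genes of embryos 1 and 3 and 8.35, 2.98 and 5.48 in cells with them (2.35 ± 0.66, edgeR adjusted p = 0.0282). Tmem67 was at 61.4 and 57.6 against 12.3, 14.1 and 8.22 (2.31 ± 0.43, adjusted p = 0.00213) and Ift140 at 66.5 and 21.6 against 9.82, 10.4 and 7.05 (2.30 ± 0.52, adjusted p = 0.00764). These values did not overlap, which the choice of named genes required. Ift57 was at 235 and 202 against 41.7, 52.8 and 45.4 (2.15 ± 0.22, adjusted p = 1.83e-05), and per cell at 3.07 and 2.33 UMIs against 2.02, 1.54 and 1.66. It was thus among the members that were higher per cell too in these embryos.

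Tctn3, a tectonic, was at 25.6 and 43.2 CPM against 7.37, 8.93 and 5.87 (2.09 ± 0.57, edgeR adjusted p = 0.0233), and Ift81 at 363 and 173 against 77.1, 92.3 and 55.6 (1.81 ± 0.27, adjusted p = 0.000334). Bbs5 was at 66.5 and 28.8 against 10.8, 16.4 and 13.3 (1.81 ± 0.46, adjusted p = 0.0162), and Wdr35 at 113 and 101 against 29.96, 29.8 and 27.02 (1.79 ± 0.28, adjusted p = 0.000526). The classes did not overlap for these 4 genes, again by the rule of choice. Mks1, the member nearest to 0, was at 20.5 and 7.20 against 12.8, 16.4 and 10.2, with overlap (0.13 ± 0.67).

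By complex, 4 of 6 IFT-A, 6 of 8 IFT-B1, 3 of 6 IFT-B2, 1 of 5 BBSome and 9 of 12 transition zone genes tested were higher, as were 6 of 7 IFT motors, 3 of 8 further subunits, 3 of 7 traffic genes, 2 of 4 nephronophthisis genes, 1 of 6 appendage genes and all 12 motile axoneme genes (median 2.14). All 8 further LRO genes, T, Foxa2 and Shh among them, were higher as well (median 2.14, against 1.40 for the members). The higher share was thus not limited to ciliary genes. Whether the members differed apart from LRO transcripts as a whole was not tested. The number of calls depended on single embryos: 6 members passed without replicate 1 and 10 without replicate 3. Over all genes, 219 of 9557 and 508 of 9873 passed in these settings. With sums of at least 5 cells, which brings in embryo 2, 27 of 34 members passed, where 1608 of all 7527 genes did. In embryo 2 alone, 33 of 40 members had a higher share in cells without mitotic genes, which numbered only 9. The median difference on the log2(CPM + 1) scale was 1.58, against -0.26 over all genes tested.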

How the data were processed

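Raw UMI counts per gene and barcode were deposited by the authors, who had aligned the 10x reads of each embryo with Cell Ranger 3.1.0 to mm10 with an added EGFP sequence. The thresholds of the study's methods were applied (1500 genes or more, at most 8500, or 7500 in embryo 2, and at most 10% mitochondrial UMIs), and barcodes under 0.5% mitochondrial UMIs were left out. Cells were classed by marker UMIs (at least 4 of 6), with no doublet caller in the main analysis. Counts were summed per embryo and lineage (at least 10 cells) and tested with edgeR 4.0.16 in R 4.3.3 (TMM, filterByExpr, quasi-likelihood, all lineages in 1 fit, Benjamini-Hochberg adjusted p of 0.05 over all genes). The fit had first been run on simulated counts that were independent between sums. That check could not cover correlation between sums of the same embryo, and it left out the test among the lineages. DESeq2 1.42.0, Scrublet in scanpy 1.11.5 and other settings were alternatives. Levels are CPM of the summed UMIs and were not compared between genes, since 3′ counts depend on each transcript's capture. The embryo was the replicate. P-values measure the spread between the embryo sums of a lineage or class, pooled over all groups of the fit. Each SE of a log2 fold change was derived from the edgeR test, as the absolute fold change divided by the square root of its F statistic. It is therefore not an estimate separate from the test. Sums of the same embryo were treated as independent in the main fit. In the mitotic split 1 class had only 2 sums. Intervals cover counting error only.

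Every lineage came from the same 3 embryos, which pairs the samples. Deviations from the group means correlated at 0.035 to 0.293 between LRO cells and the other lineages of the same embryo, and at 0.115 and 0.155 in the mitotic split. Full values are given for members past the threshold whose embryos did not overlap, up to 12 in the first comparison and 8 in the others, by size of the log2 fold change, and for the member nearest to 0. In the first comparison the rule was a level above or below the lineage mean in each embryo. In the others, a lack of overlap stated for these members follows from the choice. Bbs7, Bbs9, Ift20, Ift46, Ift74 and Ift88 values beyond this rule were chosen after they had been seen. The members and gene lists were chosen with earlier results of these data known.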

Additional observations from a re-analysis of the deposited data

Results flagged for a closer look

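EGFP, a transgene sequence outside the measurement of the members, was counted in libraries labelled wild type: 31 UMIs in embryo 1 and 32 in embryo 3, against 0 in embryo 2 with the same label. A count of 0 allows up to 3 UMIs in embryo 2. With embryos 1 and 3 alone, 36 members were higher in LRO cells than in the primary-cilium lineages, where 2251 of all 14181 genes were. In embryo 2 alone, 39 of 40 members had a positive difference, with a median of 1.35 against 0.091 over all genes tested.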

How the results depend on the processing

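Single-member values were followed for members called in the main analysis and for the member nearest to 0 in a comparison, 134 results in all. Other members that were not called did not enter, so that their gained calls are not counted. The test among the lineages has no direction, and only its call was followed. Among these single-member values, 1632 of 1778 kept their direction and side of the threshold, 130 kept the direction and lost the call, and 16 turned. Those that turned were small differences or a single reference lineage. Ttc21b in LRO cells against the lineages came to between -0.14 (without replicate 1) and 0.15 with 1 embryo left out, -0.23 without LRO cells of other lineages, -0.31 against neural plate alone and -0.38 against presomitic mesoderm alone. Bbs10 against axial mesoderm came to between -0.67 (without replicate 1) and 1.03 with 1 embryo left out (-0.12 without replicate 2), -0.14 with 5 of 6 markers and -0.53 without LRO cells of other lineages. In extraembryonic endoderm, Ift52 came to -0.22 without TMM, between -0.090 (without replicate 2) and 0.037 with 1 embryo left out, -0.023 with 3 of 6 markers and -0.042 in DESeq2, and B9d2 to 0.13 against definitive endoderm alone. Mks1 in the mitotic split came to between -0.85 (without replicate 1) and 0.36 with 1 embryo left out, and to -0.049 for cells with 0 against 1 or more mitotic genes. The cause was not tested.

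Leaving out 1 embryo at a time gave 32 to 36 members called in LRO cells against the lineages (median 1.19 to 1.35), 9 to 18 against axial mesoderm (1.08 to 1.13), 26 to 29 in extraembryonic endoderm (-0.79 to -0.72), 16 to 20 among the lineages and 6 to 21 in the mitotic split (1.09 to 1.49). In the same order, 2913 to 3787, 408 to 754, 8954 to 9297, 7397 to 7788 and 219 to 933 of all genes were called. Between 13216 and 14608 genes were tested, or 8727 to 9873 in the mitotic split. The median in LRO cells against the lineages was 2.34 without cells of other lineages, 2.12 with thinned markers and 1.01 in cells with mitotic genes. Against axial mesoderm, 15 members passed in DESeq2 and 14 of 32 tested with the 2 lineages alone in the fit, whereas 32 members passed both without cells of other lineages and with thinned markers (medians 2.07 and 1.75), and the median was 0.95 with 3 of 6 markers, 1.16 with 5 of 6 and 1.16 after Scrublet. In extraembryonic endoderm the median was -0.87 against definitive endoderm alone and -0.96 without TMM, and among the lineages 14 members passed without endothelium. Library size without TMM, sums of 5 cells and cells with mitotic genes were alternatives chosen after seeing the data.

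With the embryo as a replicate block no call was lost: 37 members passed in LRO cells against the lineages, 20 against axial mesoderm (Ift20 added), 31 in extraembryonic endoderm (Ift43 and Ift46 added), 26 among the lineages (Ift52, Ift172, Tctn1 and Tmem231 added) and 25 in the mitotic split (Bbs2 and Ttc26 added). In the same order, 5175, 1266, 10595 and 10642 of all 13671 genes passed, and 1391 of 9378 in the mitotic split. Bbs10 against axial mesoderm came to -0.024 under the block. Few counts stood behind some axial values (2 UMIs of Ift140 and 1 of Bbs12), and the LRO sums without mitotic genes held 195398 and 138844 UMIs.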
